A study of Drosophila melanogaster with 16 samples.

Results

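The 8 genes described here are transcribed mainly or only in males: the noncoding RNAs lncRNA:roX1 and lncRNA:roX2, the Y-linked genes ARY, Pp1-Y2, ORY, Ppr-Y and kl-2, and the testis-specific β-tubulin gene betaTub85D. They were picked by symbol, with their counts in these libraries already known, from a table of 17207 genes, so their levels below are a description and carry no test. The libraries were made from poly(A) RNA of wandering larvae of the third instar, which the methods of the study describe as female and whose sex the sample labels do not give. All larvae shared a w1118 nuclear genome and differed in their mitochondrial genome, Dahomey or Alstonville, and in the protein to carbohydrate (P:C) ratio of their food, 1:16 or 1:2. There were 4 libraries in each of the groups Dahomey 1:16, Alstonville 1:16, Dahomey 1:2 and Alstonville 1:2. How many larvae went into a library was not given in the sources used here, so the spread between replicates may be biological or technical.

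In Drosophila males, roX RNAs assemble with the MSL proteins on the single X chromosome and raise its transcription to match the pair of X chromosomes in females. In females the MSL complex does not form and roX RNAs are scarce after embryogenesis. The Y chromosome carries few protein-coding genes, most of them used in spermatocytes, and betaTub85D replaces other β-tubulins in the meiotic spindle and sperm axoneme. The larval testis already holds spermatocytes at this stage, and female larvae have none.

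The libraries held 24869991 to 31896525 counts (median 27680129), and 12750 genes with 0.25 or more CPM (counts scaled to library size) in 4 or more libraries were tested. Against the description as female, lncRNA:roX2 had 20 or more counts in 12 of the 16 libraries. The other 4 libraries, which had 1 count or less, were Dahomey 1:2 replicates 1 and 3 and Alstonville 1:2 replicates 1 and 4. All 8 libraries on the 1:16 P:C diet were among the 12. The sex and number of the larvae behind each library are not labelled, and whether any of them were male was not tested.

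lncRNA:roX1 (X:3857230-3862697 on Release 6, minus strand) is a noncoding transcript of 5468 bases. In Dahomey 1:16 larvae it had 347, 258, 320 and 319 CPM, and in Alstonville 1:16 larvae 251, 113, 176 and 503 CPM. In Dahomey 1:2 larvae the 4 replicates had 13.0, 189, 16.0 and 685 CPM, and in Alstonville 1:2 larvae 15.8, 152, 191 and 20.8 CPM. The 1:16 libraries formed a continuous range, while the 1:2 libraries lay either at or below 20.8 CPM or at or above 152 CPM within each mitotype. A low level of roX1 was therefore present in every library, at least 375 counts. Exons of lncRNA:roX1 overlap those of 2 other annotated genes over 479 bases, and whether reads were counted by strand was not given, so part of its counts may belong to these neighbours.

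lncRNA:roX2 (X:11579065-11580432, plus strand, 1368 bases) can replace roX1 in dosage compensation. Its counts in Dahomey 1:16 larvae were 89, 93, 83 and 100, and in Alstonville 1:16 larvae 44, 20, 42 and 127. Dahomey 1:2 larvae had 1, 86, 1 and 289 counts, and Alstonville 1:2 larvae 1, 87, 112 and 0. The same libraries were low for both roX RNAs. Across the 16 libraries, which share their preparation and differ in depth, the log2 CPM of the pair had a Pearson r of 0.984. Mean levels per kilobase were 40.8 CPM for roX1 and 1.92 CPM for roX2.

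**Figure D1:**
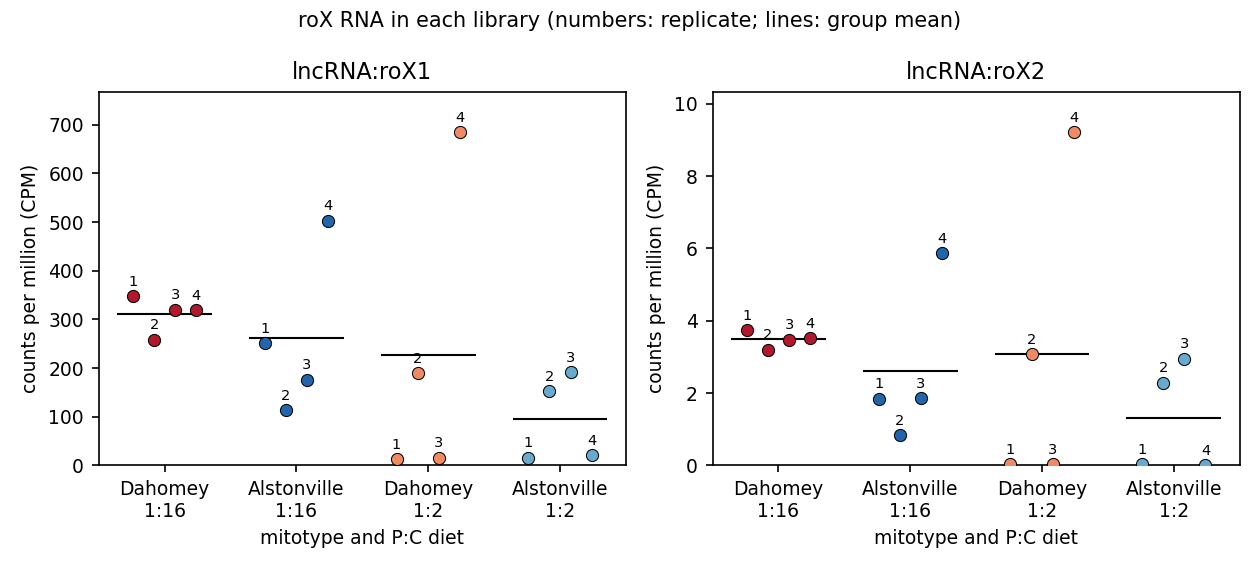
CPM of lncRNA:roX1 (left) and lncRNA:roX2 (right) in each library, by mitotype and P:C diet, with the replicate number above each point and a line at the group mean. All 8 libraries on 1:16 lie at 113 CPM of roX1 or more, whereas each 1:2 group holds 2 libraries near 0 and 2 well above, with Dahomey 1:2 replicate 4 the highest at 685 CPM.

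Dahomey 1:16 was the most even group for both RNAs. Its roX1 level averaged 311 ± 37.4 CPM (SD, n = 4), against 261 ± 171 CPM in Alstonville 1:16 larvae, and its roX2 level 3.48 ± 0.219 CPM, against 2.60 ± 2.23 CPM. On the 1:2 diet roX1 averaged 226 ± 317 CPM in Dahomey and 94.7 ± 89.6 CPM in Alstonville larvae, so that the SD was close to the mean or above it. The fitted log2 fold changes of roX1 were 0.25 (SE 1.06) for Dahomey over Alstonville on 1:16 and 1.25 (SE 1.08) on 1:2. Each lay close to its SE or within it, and the libraries of the mitotypes overlapped on both diets. Without Dahomey 1:2 replicate 4 the value on 1:2 was -0.38 for roX1 and -0.34 for roX2, and with 1 surrogate variable in limma, a term that absorbs variation shared by many genes, the value on 1:16 was -1.45 for roX1 and -1.78 for roX2.

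The share of roX2 among the summed roX counts was 1.07 to 1.23% in Dahomey 1:16 larvae and 0.727 to 1.15% in Alstonville 1:16 larvae. In the 4 libraries on 1:2 with 20 or more roX2 counts it was 1.33 to 1.60%. The 4 libraries with 1 roX2 count or less had 0 to 0.266%, with exact 95% binomial intervals that reached up to 0.711 to 1.47%. The intervals of the 4 libraries on 1:2 with 20 or more roX2 counts began at 1.18 to 1.28%. All 4 lay above Alstonville 1:16 replicates 1 and 2, whose intervals ended at 0.975 and 1.13%, and overlapped those of the other 1:16 libraries. All such intervals cover counting error only.

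betaTub85D (3R:9408383-9410282, minus strand) is the only autosomal member and, among the 6 testis and Y-linked members, had the highest level, with a mean of 11.3 CPM per kilobase. It is switched on in primary spermatocytes and used through meiosis and sperm elongation. Dahomey 1:16 larvae had 391, 223, 240 and 697 counts of it, and Alstonville 1:16 larvae 17, 22, 2 and 31 counts. Dahomey 1:2 larvae had 7, 522, 10 and 4648 counts, and Alstonville 1:2 larvae 10, 2373, 1531 and 1 counts. On 1:2 the libraries with high betaTub85D were the same 4 that held roX2. On 1:16 the mitotypes did not overlap, at 14.7 ± 7.54 CPM in Dahomey and 0.786 ± 0.556 CPM in Alstonville larvae (SD, n = 4 each), and the fitted log2 fold change was 4.22 (SE 1.99). In limma with 1 and 3 surrogate variables it was 0.58 and 0.34.

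The 5 Y-linked members were sparse. kl-2 (Y:573088-664173), a male fertility factor that encodes an axonemal dynein heavy chain, had 8, 0, 0 and 4 counts in Dahomey 1:16 larvae and 0, 1, 0 and 1 in Alstonville 1:16 larvae. It had 0, 17, 0 and 180 counts in Dahomey 1:2 larvae and 1, 78, 54 and 1 in Alstonville 1:2 larvae. All libraries with more than 8 counts of kl-2 were therefore on the 1:2 diet, and they were the 4 with roX2.

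ARY (Y:702430-704048), named for its similarity to aldehyde reductases, had 13, 4, 4 and 18 counts in Dahomey 1:16 larvae and 1, 0, 0 and 0 in Alstonville 1:16 larvae. Dahomey 1:2 larvae had 0, 12, 0 and 101 counts of it, and Alstonville 1:2 larvae 0, 44, 38 and 0. Unlike kl-2, ARY was above 3 counts in every Dahomey 1:16 library. A count of 3, taken as the floor, corresponded to 0.079 to 0.139 CPM, and a count of 0 allows a level up to it.

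Pp1-Y2 (Y:3539437-3540722), which encodes a catalytic subunit of protein phosphatase 1, had 1, 4, 1 and 9 counts in Dahomey 1:16 larvae and 0, 1, 0 and 0 in Alstonville 1:16 larvae. It had 0, 1, 0 and 49 counts in Dahomey 1:2 larvae and 0, 21, 10 and 0 in Alstonville 1:2 larvae. Dahomey 1:2 replicate 2 was thus low for Pp1-Y2 although it had 17 counts of kl-2.

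Ppr-Y (Y:1636574-1884846) had 1, 1, 0 and 2 counts in Dahomey 1:16 larvae, 0 in all Alstonville 1:16 libraries, 0, 2, 0 and 19 counts in Dahomey 1:2 larvae and 0, 11, 7 and 0 in Alstonville 1:2 larvae. ORY (Y:3561745-3618339) had no count in any of the 8 libraries on 1:16. On 1:2 it had 0, 5, 0 and 20 counts in Dahomey larvae and 0, 4, 3 and 0 in Alstonville larvae. These were the only 2 of the 8 members that did not reach the minimum level for testing, with totals of 43 counts of Ppr-Y and 32 of ORY, and neither was tested.

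**Figure D2:**
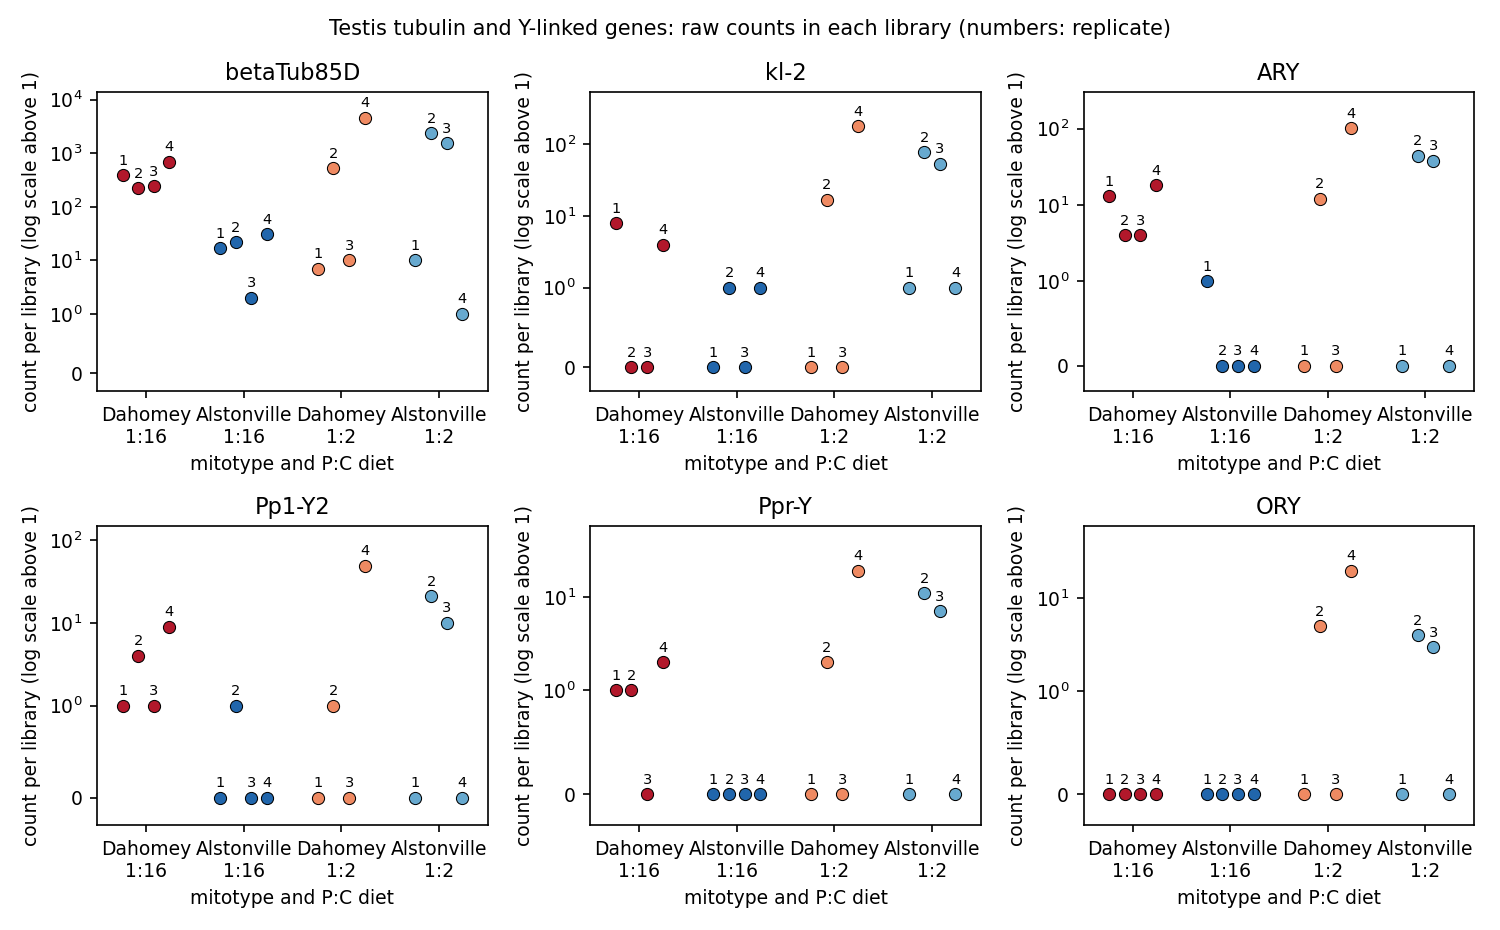
Raw counts of betaTub85D and the 5 Y-linked members in each library, on an axis that is linear up to 1 and logarithmic above it, with the replicate number above each point. Dahomey 1:2 replicate 4 and Alstonville 1:2 replicates 2 and 3 lie above all 1:16 libraries in every panel, Dahomey 1:2 replicate 2 does so only for kl-2 and ORY, and Alstonville 1:16 stays at or below 31 counts of betaTub85D and 1 count of any Y-linked gene.

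Of the 6 members that were tested, 3 (betaTub85D, ARY and Pp1-Y2) did not overlap between mitotypes on the 1:16 diet, with Dahomey higher. The same held for 19.8% of all genes tested, 24.2% were separated with Dahomey lower, and this contrast was among the values that chose the members. For Pp1-Y2 the separation rests on library size alone, since the lowest Dahomey and the highest Alstonville libraries had 1 count each. On the 1:2 diet, and between the diets within each mitotype, the libraries of no member were separated. Of all genes 1.2% were separated with Dahomey higher and 0.831% with Dahomey lower on 1:2, 29.1% with 1:16 higher and 24.1% lower in Alstonville, and 25.1% and 20.1% in Dahomey larvae. In these bulk samples, fewer cells of a type and less RNA per cell cannot be told apart.

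The 1:16 groups differed in how much betaTub85D accompanied a given amount of roX2. Dahomey 1:16 larvae had 4.39, 2.40, 2.89 and 6.97 betaTub85D counts per roX2 count, and Alstonville 1:16 larvae 0.386, 1.10, 0.0476 and 0.244. Among the libraries on 1:2 with roX2 the ratio was 6.07 and 16.1 in Dahomey replicates 2 and 4 and 27.3 and 13.7 in Alstonville replicates 2 and 3, so that 3 of the 4 lay above every 1:16 library and Dahomey 1:2 replicate 2 lay within the range of Dahomey 1:16. Alstonville 1:16 replicate 4 had 127 roX2 counts, more than any of the Dahomey 1:16 libraries, with 31 betaTub85D counts. Scaled to roX1 in place of roX2, the 1:16 groups were again apart, at 29.8 to 77.0 betaTub85D counts per 1000 roX1 counts in Dahomey 1:16 and 0.503 to 8.11 in Alstonville 1:16 larvae. By this scale the 4 libraries on 1:2 with roX2 had 98.9 and 216 in Dahomey and 413 and 211 in Alstonville larvae, and the 4 without had 1.93 to 19.8.

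**Figure D3:**
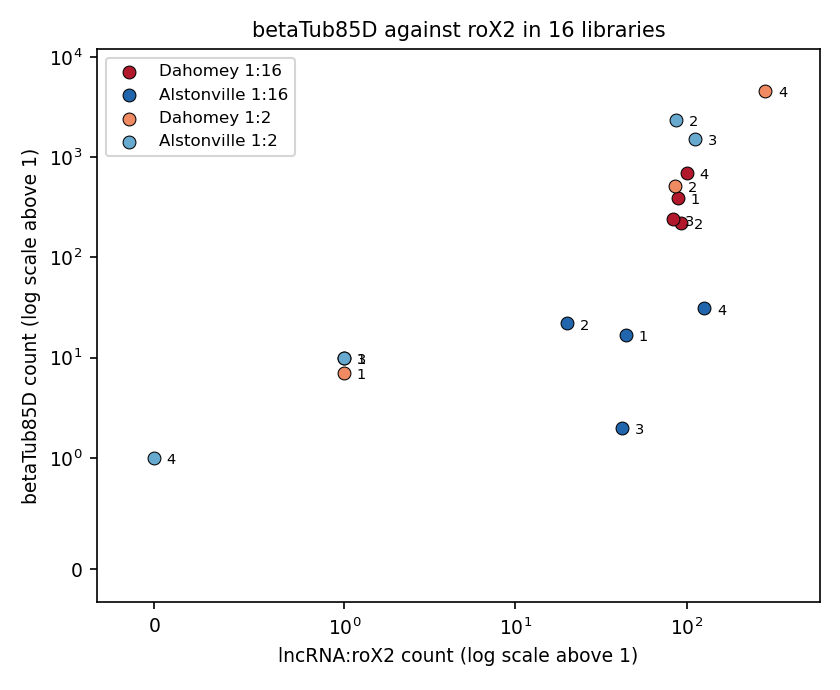
Counts of betaTub85D (vertical) against lncRNA:roX2 (horizontal) in the 16 libraries, coloured by group, with replicate numbers beside the points and both axes logarithmic above 1. The 4 Alstonville 1:16 libraries hold 20 to 127 roX2 counts but at most 31 of betaTub85D, and the points of Dahomey 1:2 replicate 3 and Alstonville 1:2 replicate 1 coincide at 1 and 10 counts.

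Correlations of log2 CPM over the 16 libraries, given as a description, separated the members in the same way. betaTub85D had a Pearson r of 0.948 with ARY, 0.841 with Pp1-Y2 and 0.803 with kl-2, but 0.684 with roX1 and 0.752 with roX2. kl-2 had the lowest values against the roX RNAs, 0.415 with roX1 and 0.481 with roX2. All points share library depth and group membership, and the Y-linked values near 0 counts carry large counting error.

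The Y-linked genes also differed among themselves in proportion to betaTub85D. kl-2 made up 2.01, 0, 0 and 0.571% of the counts of kl-2 plus betaTub85D in Dahomey 1:16 larvae. It made up 3.15 and 3.73% in Dahomey 1:2 replicates 2 and 4, and 3.18 and 3.41% in Alstonville 1:2 replicates 2 and 3. The exact 95% binomial intervals were 0.870 to 3.91% and 0.156 to 1.45% for Dahomey 1:16 replicates 1 and 4, and reached up to 1.64 and 1.53% for replicates 2 and 3. Replicates 2, 3 and 4 thus had intervals that ended below that of each of these 1:2 libraries, the lowest bound of which was 1.85%, and replicate 1 overlapped them.

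ARY did not follow kl-2 in this. Its share of the counts of ARY plus betaTub85D was 3.22, 1.76, 1.64 and 2.52% in Dahomey 1:16 larvae, against 2.25 and 2.13% in Dahomey 1:2 replicates 2 and 4 and 1.82 and 2.42% in Alstonville 1:2 replicates 2 and 3. All 8 intervals overlapped. In Alstonville 1:16 larvae, with 72 betaTub85D counts over 4 libraries, none of these shares could be resolved.

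**Figure D4:**
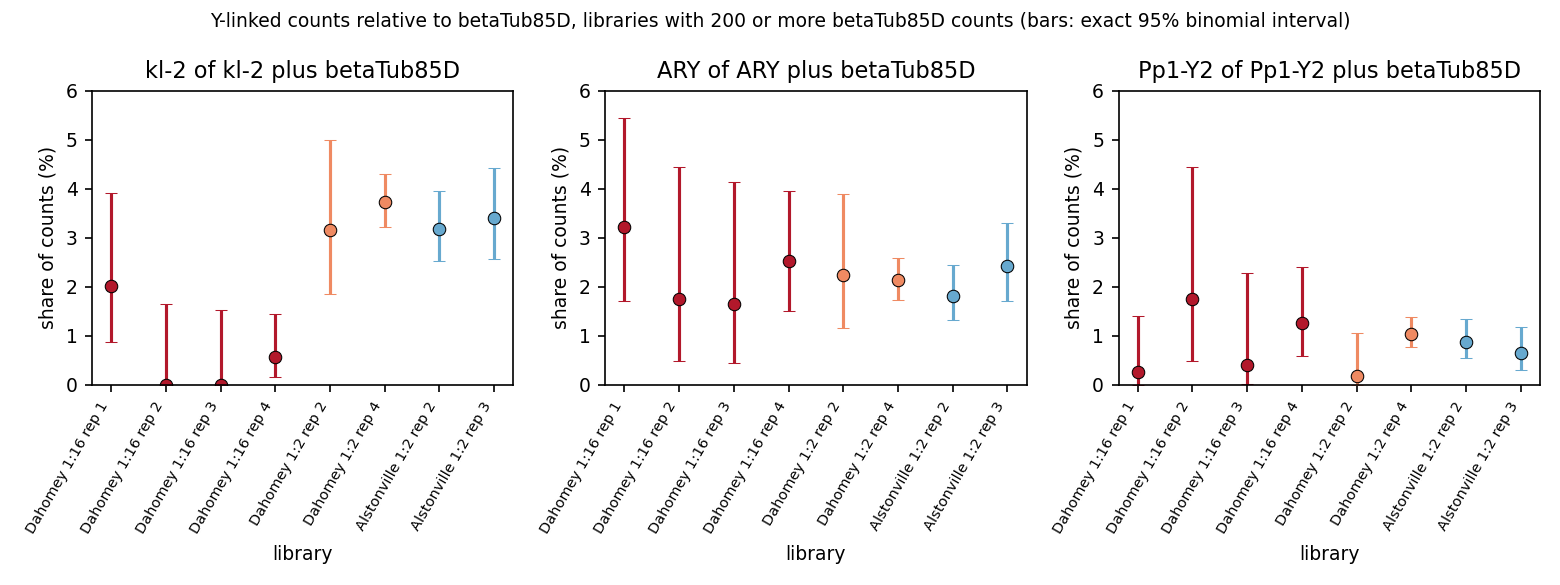
Share (%) of kl-2, ARY and Pp1-Y2 in the summed counts of each gene and betaTub85D, for the 8 libraries with 200 or more betaTub85D counts, with exact 95% binomial intervals. The kl-2 share lies at 0 to 2.01% in Dahomey 1:16 and at 3.15 to 3.73% in the 1:2 libraries, whereas the ARY shares of the 2 diets overlap.

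The genes whose log2 CPM ran closest to each roX RNA over the 16 libraries were the same 5 for both: gNacalpha, CG15599, RpL22-like, CG43843 and CG6324, with r from 0.953 to 0.978. RpL22-like encodes a ribosomal protein paralogue that is abundant in the germline. Of these, CG15599, CG43843 and CG6324 lie on the X chromosome. The closest to betaTub85D were sinah, CG14540, CG2127, CG2955 and CG33286, with r of 0.993 or 0.994, each with 0 or 1 count in its lowest library and 719 to 3021 counts in its highest. The 2 sets shared no gene.

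Other male genes, 74 besides the members, were compared to see whether the same libraries carried a wider testis programme. They comprised 29 genes of spermatocytes and spermatids, 11 meiotic arrest genes, whose products are needed to switch on the spermatocyte programme, and the 34 other genes annotated on the Y chromosome. Of these 42 passed the minimum level: 28 spermatocyte and spermatid, all 11 meiotic arrest and 3 Y-linked genes. The summed CPM of the spermatocyte and spermatid list was 134 to 341 in Dahomey 1:16 and 40.7 to 80.1 in Alstonville 1:16 larvae. In Dahomey 1:2 larvae it was 21.2, 241, 19.3 and 1890, and in Alstonville 1:2 larvae 18.0, 762, 506 and 32.5. The libraries that were high for betaTub85D were high for this list.

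**Figure D5:**
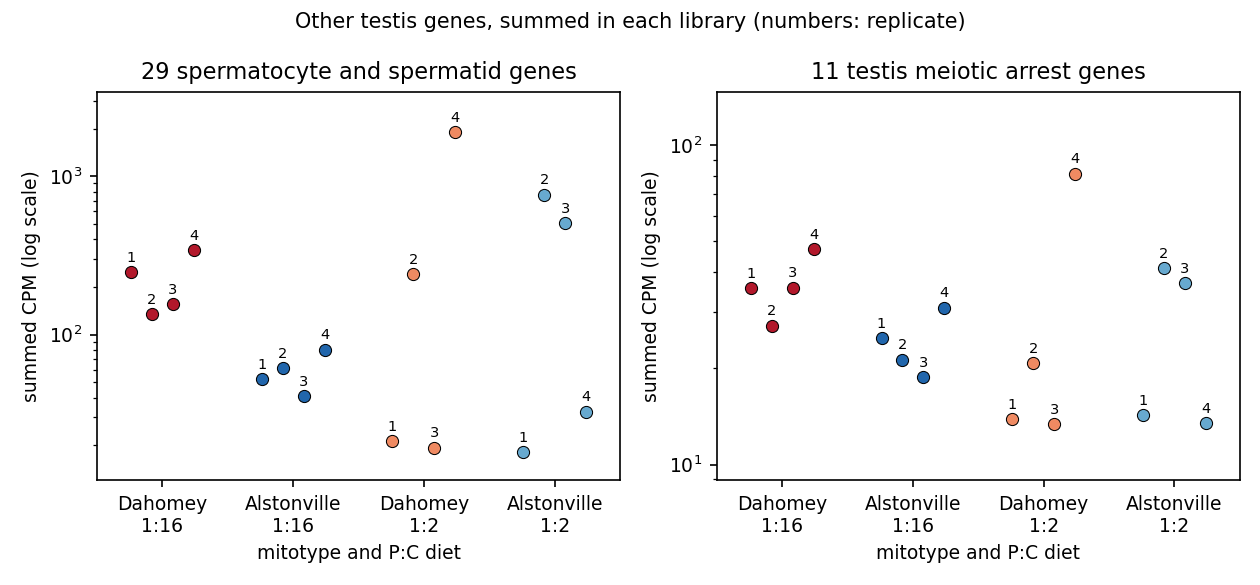
Summed CPM of 29 spermatocyte and spermatid genes (left) and 11 testis meiotic arrest genes (right) in each library, on logarithmic axes, with replicate numbers above the points. The spermatocyte and spermatid sum spans 18.0 to 1890 CPM and the meiotic arrest sum 13.4 to 81.3 CPM, and Alstonville 1:16 lies below Dahomey 1:16 without overlap only in the left panel.

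Much of the Alstonville 1:16 sum came from bol, a translational regulator of meiotic entry. In the 4 libraries with 1 roX2 count or less bol had 424 to 715 counts, and each other gene of the list 81 or fewer. bol had 50.1, 36.6, 36.8 and 44.7 CPM in Dahomey 1:16 larvae and 43.6, 46.3, 38.2 and 50.2 CPM in Alstonville 1:16 larvae, and the groups overlapped. S-Lap1, which encodes a sperm leucyl aminopeptidase, had 26.2, 12.5, 14.5 and 40.6 CPM in Dahomey 1:16 and 0.670, 1.29, 0.177 and 2.82 CPM in Alstonville 1:16 larvae. Its relative loopin-1 had 9.58 to 35.7 CPM in Dahomey 1:16 and 0.0443 to 2.13 CPM in Alstonville 1:16 larvae. Both aminopeptidase genes were separated by mitotype on this diet.

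For Dahomey over Alstonville on 1:16, 27 of the 28 spermatocyte and spermatid genes tested were higher in every Dahomey library than in any Alstonville library, as against 19.8% of all genes. The list was chosen with earlier results of these data known, and most of its genes were high in the same libraries. The share is therefore a description and not a test of enrichment. Over the 42 other male genes 29 were, the median log2 fold change was 3.14, and the median over all genes tested was -0.026. With 1 and 3 surrogate variables in limma the median of the 42 was 0.018 and 0.017. By edgeR's quasi-likelihood test over all 12750 genes 0 of the 42 had an adjusted p under 0.05, where 15.3% of all genes did, and 5 had an unadjusted p under 0.05, all higher in Dahomey, where 32% of all genes had. S-Lap1 had a log2 fold change of 4.25 (SE 2.05, adjusted p = 0.170). This fit shares its estimate of the spread over all groups, including the wide 1:2 groups. Fitted to the 8 libraries on 1:16 alone, 30 of 41 were called, all higher in Dahomey, where 40.3% of all genes were called. That fit applied the minimum level to these 8 libraries, so a gene could enter through its Dahomey libraries alone. The direction of its calls is therefore partly set by the filter. DESeq2 on all 16 libraries called 7 of 42, all higher, where 22.8% of all genes were called.

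For Dahomey over Alstonville on 1:2, 0 of the 42 genes were called by edgeR and 0 had an unadjusted p under 0.05, where 0.0941% of all genes were called and 4.4% had such an unadjusted p. DESeq2 called 0 as well, where 0.682% of all genes were called. So did limma with 0, 1 and 3 surrogate variables, where 0.157, 0.196 and 0.667% were. All 42 fitted values were positive, with a median log2 fold change of 0.62, but the sign depended on Dahomey 1:2 replicate 4 and on the model. Without that library the median was -2.03, with a replicate block it was -0.97, and in limma with 0, 1 and 3 surrogate variables it was 0.0022, -0.0041 and -0.029. Without the 4 libraries on 1:2 that had over 1 count of roX2, a choice made after seeing the data, 0 of 41 were called. There 0.0248% of all genes were.

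Between the diets in Alstonville larvae, 6 spermatid genes were lower on 1:16 than on 1:2 and 1 meiotic arrest gene was higher by edgeR, of 42 tested. Of all genes 59.9% were called, 29.3% lower and 30.6% higher. ProtB, a protamine-like protein of sperm chromatin, averaged 0.0231 CPM on 1:16 and 2.51 CPM on 1:2 (log2 fold change -6.57, SE 2.46, adjusted p = 0.0339). dj, a sperm tail protein, changed by -6.05 (SE 2.34), and janB, a sperm protein gene, by -5.62 (SE 2.15). Mst77F, a linker histone-like protein of sperm chromatin, changed by -4.64 (SE 1.88) and Mst87F, a sperm structural protein, by -4.29 (SE 1.58). The sixth was fzo, the mitochondrial fusion protein of spermatids, at -4.28 (SE 1.58), which fell outside the rule for naming genes and was named after its values were seen. The adjusted p of these other 5 by edgeR lay between 0.0316 and 0.0469.

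These calls rest on few libraries. The counts of ProtB in Alstonville replicates 1 to 4 were 0, 0, 0 and 2 on 1:16, against 0, 241, 140 and 0 on 1:2, so the diets overlapped, as they did for each of the 6. Without Alstonville 1:2 replicate 2 or without replicate 3 none of the 6 was called, and without any 1 of the 4 Alstonville 1:16 libraries at most 1 was. Without Alstonville 1:2 replicate 1 or 4, or Dahomey 1:2 replicate 1, 3 or 4, 15 to 17 of the 42 were called lower. In these fits 58.5 to 66.4% of all genes were called. Of the 12623 to 12735 genes tested, 3689 to 4267 were called lower.

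In Dahomey larvae 1 of the 42 was called between the diets, again mia, where 49% of all genes were, 24.6% higher and 24.4% lower. mia encodes a testis form of a transcription factor subunit, and it had 6.43, 5.37, 7.42 and 6.44 CPM on 1:16 and 2.33, 2.40, 1.65 and 5.10 CPM on 1:2 in Dahomey larvae. In Alstonville larvae it had 5.31, 5.64, 4.87 and 4.67 CPM on 1:16 and 1.38, 2.08, 3.05 and 2.62 CPM on 1:2. mia was higher on 1:16 by a log2 fold change of 1.16 (SE 0.31, adjusted p = 0.00713, edgeR) in Dahomey and 1.17 (SE 0.31, adjusted p = 0.00535) in Alstonville larvae, without overlap in either. achi and topi, DNA-binding regulators of the same programme, were not called in any comparison. In the 4 libraries with 1 roX2 count or less mia still had 47 to 67 counts and topi 42 to 59. There aly, another meiotic arrest gene, had 0 or 1. Alstonville 1:16 larvae had 101 to 136 counts of mia and 0 to 22 of aly. mia thus did not follow aly across the libraries.

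The interaction of mitotype and diet was called for 0 of the 42 by edgeR, with 0 at an unadjusted p under 0.05, where 0.784% of all genes were called and 15.2% had such an unadjusted p. DESeq2 called 0, where 5.82% of all genes were called. In limma 0 were called with no or 1 surrogate variable, and 1, of negative sign, with 3. There 1.38, 0.729 and 11% of all genes were called. The median log2 interaction by edgeR was 2.42, with an all-gene median of -0.0091. It was 5.33 without Dahomey 1:2 replicate 4, 1.57 without Alstonville 1:2 replicate 2, 5.26 with a replicate block, and 0.016 and 0.031 with 1 and 3 surrogate variables.

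Of the other Y-linked genes only FDY, CR41507 and CR41506 passed the minimum level, and none was called in any comparison. FDY had 60, 60, 48 and 87 counts in Dahomey 1:16 and 42, 50, 34 and 41 in Alstonville 1:16 larvae, and it had 21 to 125 counts on 1:2, including 24 in Alstonville 1:2 replicate 4, where ARY and ORY had 0. FDY is a copy of an autosomal gene with near-identical sequence, so its counts may be shared with that gene. CR41507 ranged from 5 to 22 counts and CR41506 from 4 to 18, with no library at 0.

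Of the 5 genes for protein partners of roX RNA in the MSL complex (msl-1, msl-2, msl-3, mle and mof), edgeR called 0 between the mitotypes on either diet, where 15.3% of all genes were called on 1:16 and 0.0941% on 1:2. Of the 5, 1 on 1:16 and 0 on 1:2 had an unadjusted p under 0.05. msl-1, which encodes a scaffold of the complex, had 28.6, 34.7, 28.9 and 27.9 CPM in Dahomey 1:16 larvae and 39.5, 39.6, 42.5 and 43.3 CPM in Dahomey 1:2 larvae. In Alstonville larvae it had 27.9 to 32.7 CPM on 1:16 and 36.4 to 40.0 CPM on 1:2. mle, the helicase that loads roX RNA, averaged 48.4 CPM on 1:16 and 59.8 CPM on 1:2 in Dahomey, and 41.8 and 54.7 CPM in Alstonville larvae.

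Both, and none of the other 3, were called between the diets, where 49% of all genes were called in Dahomey and 59.9% in Alstonville larvae. They were lower on 1:16 in each mitotype by edgeR, msl-1 by log2 fold changes of -0.46 in Dahomey and -0.38 in Alstonville larvae (SE 0.079 each) and mle by -0.31 and -0.39 (SE 0.075 each), with adjusted p from 0.000512 to 0.00417. The all-gene medians of these contrasts were -0.125 and -0.106. With 3 surrogate variables in limma neither was called. msl-2, whose translation is blocked by Sxl in females, was lowest in the 4 libraries with 1 roX2 count or less, at 14.6 to 16.5 CPM, and highest in Dahomey 1:2 replicate 4 and Alstonville 1:16 replicate 4, at 43.2 and 29.7 CPM, the libraries with the most roX1. The other 10 libraries had 17.3 to 26.8 CPM, and msl-2 was not called in any comparison.

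Among 7 sex determination genes, 1 was called between mitotypes on 1:16, where 15.3% of all genes were. This was dsx, the switch between male and female development, at 9.66 CPM in Dahomey and 4.05 CPM in Alstonville larvae on average. It was higher in Dahomey by a log2 fold change of 1.26 (SE 0.25, adjusted p = 0.00599, edgeR). Its counts were 178, 427, 178 and 256 in Dahomey 1:16 and 80, 120, 72 and 101 in Alstonville 1:16 larvae. Without single libraries the log2 fold change was 0.981 to 1.37. dsx was lower on 1:16 than on 1:2 in both mitotypes, by -1.31 (SE 0.25) in Dahomey and -2.70 (SE 0.26) in Alstonville larvae. fru, a transcription factor with male-specific isoforms, was higher on 1:16 in both, by 1.75 (SE 0.53) and 1.31 (SE 0.52), and ix, a partner of dsx, was lower in both, by -0.55 and -0.48 (SE 0.18 each). No other gene of the 7 was called between the diets, where 49% of all genes were called in Dahomey and 59.9% in Alstonville larvae. The call of fru in Alstonville larvae was lost without any 1 of 13 libraries (adjusted p = 0.0514 to 0.101), all but Dahomey 1:2 replicates 3 and 4 and Alstonville 1:2 replicate 4. That of ix was lost without any 1 of 4 libraries in each mitotype: Dahomey 1:16 replicates 1, 3 and 4 and Dahomey 1:2 replicate 3 (adjusted p up to 0.0747), and Alstonville 1:16 replicates 3 and 4 and Alstonville 1:2 replicates 1 and 2 (up to 0.0989). Sxl, the female-determining splicing regulator, was not called. It had 92.6 CPM in Dahomey 1:2 replicate 4 and 128 to 279 CPM in the other 15 libraries. Gene counts do not separate the sex-specific isoforms of these genes.

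Genes of germ cells of both sexes showed 1 call of 8 on 1:16 between mitotypes, where 15.3% of all genes were called. This was ovo, a germline transcription factor that also acts in the epidermis. It averaged 24.6 CPM in Dahomey and 11.7 CPM in Alstonville larvae (log2 fold change 1.08, SE 0.22, adjusted p = 0.00708, edgeR). Its counts were 470, 1148, 451 and 578 in Dahomey 1:16 and 250, 318, 247 and 264 in Alstonville 1:16 larvae. Without single libraries the log2 fold change was 0.75 to 1.18. ovo was lower on 1:16 than on 1:2 in both mitotypes, by -1.11 (SE 0.22) in Dahomey and -2.10 (SE 0.23) in Alstonville larvae. nanos, a translational repressor needed in germ cells, was higher on 1:16 in Alstonville larvae (1.67, SE 0.65, adjusted p = 0.0386, edgeR). Its call was lost with a replicate block (adjusted p = 0.0892) and without any 1 of 5 libraries, Alstonville 1:16 replicate 4 and the 4 of Alstonville 1:2 (adjusted p = 0.0516 to 0.178). No other gene of the 8 was called between the diets, where 49% of all genes were called in Dahomey and 59.9% in Alstonville larvae. Yolk protein genes, used by adult females, were near 0, with a summed level of 8.83 CPM at most. Yp2 was called higher in Dahomey on 1:16 (log2 fold change 4.70, SE 1.40, adjusted p = 0.0376) with 5.31 CPM in replicate 4 and 0.126 to 0.413 CPM in the other replicates, against 0.0885 CPM or less in Alstonville larvae. Its call was lost without any 1 of the Alstonville 1:16 libraries or Dahomey 1:2 replicate 2 (adjusted p = 0.0554 to 0.101), with a replicate block (adjusted p = 0.139), and in limma with 0, 1 and 3 surrogate variables (adjusted p = 0.104, 0.0987 and 0.0648).

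Developmental markers mostly moved with the diet groups. The summed CPM of 6 salivary glue genes, made before pupariation, was 4.20 to 6.60 in 7 of the 8 libraries on 1:16, 2640 in Dahomey 1:16 replicate 2, and 8900 to 16000 on 1:2. Of the ecdysone response genes, which respond to the moulting hormone, the summed CPM was 387 to 951 in Dahomey 1:16 and 302 to 342 in Alstonville 1:16 larvae, against 1460 to 3110 in Dahomey 1:2 and 972 to 3630 in Alstonville 1:2 larvae. Within this sum ftz-f1 went the other way, with 964 to 1301 counts on 1:16 and 281 to 890 on 1:2. Hr4 had 3270, 2901, 3316 and 185 counts in Dahomey 1:2 and 5787, 4537, 275 and 65 in Alstonville 1:2 larvae. Eip78C and Hr3 were low in the same 1:2 libraries as Hr4. Dahomey 1:16 replicate 2, the library with the glue genes, had the lowest betaTub85D of its group, 7.68 CPM. Whether developmental stage has a part in the differences of the male genes was not tested.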

How the data were processed

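Poly(A) RNA of larvae was sequenced as paired-end reads of 100 bases, 4 libraries per mitotype and diet. Per the study's methods and the labels, the authors aligned reads with Subread to the Release 6 assembly and assigned them to NCBI genes with featureCounts. The deposited values are raw counts per gene, not normalized. The use of strand, the handling of reads that map to several places and the software versions are not given in the sources used here. The labels' extraction text speaks of sorted cells, while the labels' source and the methods give larvae.

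Of 17207 genes, 17063 were named from a reference table of the same release, and positions come from its annotation. Counts were tested in R 4.3.3 with edgeR 4.0.16: a level of 0.25 CPM or more in 4 or more libraries (12750 genes), TMM scaling (factors 0.794 to 1.21), 1 coefficient per group, robust quasi-likelihood with 12 residual degrees of freedom, and Benjamini-Hochberg adjustment over all genes tested within each comparison, called under 0.05. SE was taken from the F statistic and the fitted log2 fold change. Levels are CPM after TMM scaling. No 2 replicate libraries were copies of each other.

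The members and gene lists were chosen with earlier results of these data known. Genes named besides the members were, for each list, those called in any comparison (up to the 5 with the largest change), the 3 with the highest mean CPM, and the 5 with the highest correlation to roX1, roX2 or betaTub85D. The glue and ecdysone lists are given as sums, and ftz-f1, Hr4, Eip78C, Hr3 and aly were named after their values were seen. Results were also computed with scaling by relative log expression or upper quartiles, no filter beyond 1 count, at least 10 counts in every library, DESeq2 1.42.0, limma 3.58.1 with 0, 1 or 3 surrogate variables, a block for replicate number, only the 8 libraries compared, a threshold of 0.01, and leaving out each library. The fits were tested on simulated data. The authors' other assays were not analysed here, and no sequence is shown because the references used hold none.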

Additional observations from a re-analysis of the deposited data

Results flagged for a closer look

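In groups of 4, a library was marked where its gap to the nearest other relative to the group's range exceeded Dixon's 95% critical value for 4 samples. This rule marks about 1 of 20 groups of normally distributed values. Of 25 groups of members with more than 3 counts in a library, 5 were marked, all of them for Dahomey 1:2 replicate 4, which stood above the other 3 libraries of its group. It had 148 CPM of betaTub85D (4648 counts), 5.74 CPM of kl-2 (180 counts), 3.22 CPM of ARY (101 counts), 1.56 CPM of Pp1-Y2 (49 counts) and 0.606 CPM of Ppr-Y (19 counts). The members share a library, so these 5 are not independent. They were also picked with their values known, and Dahomey 1:2 libraries were split between low and high. The rate of 1 in 20 therefore does not apply, and the marks are a description and no test. No cause was tested.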

How the results depend on the processing

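For the other male genes called between mitotypes on 1:2, the count stayed at 0 in every alternative, where 0 to 0.682% of all genes were called. On 1:16 it was 0, but 7 with DESeq2, where 22.8% of all genes were called. It was 30 with only the 8 libraries compared, where 40.3% were. With limma and 1 or 3 surrogate variables it was 1 (lower in Dahomey), where 12.1 and 26.1% of all genes were called. Between diets in Alstonville larvae the count was 7, 1 higher and 6 lower on 1:16, where 59.9% of all genes were called. DESeq2 called 22, 1 higher and 21 lower, and 67.2% of all genes. With limma and 0, 1 and 3 surrogate variables the count was 1 (higher), 14 (7 higher, 7 lower) and 4 (3 higher, 1 lower). There 58.2, 63.4 and 34.5% of all genes were called. With 10 counts in every library it was 1 of 6 tested, where 71.1% of all genes were called. At a threshold of 0.01 it was 1, where 45.9% were. Without single libraries it was 1 to 18, where 52.8 to 66.4% of all genes were called. In Dahomey larvae it was 1, where 49% of all genes were called. It was 5 (3 higher, 2 lower) and 0 with 1 and 3 surrogate variables, where 54.5 and 17.8% were. Without single libraries it was 1 to 4, where 41.7 to 52.2% of all genes were called. The interaction count was 0, where 0.784% of all genes were called, and 1 with 3 surrogate variables, where 11% were. The cause of these shifts was not tested.

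Libraries of the same replicate number in different groups were not alike in a regular way. Over 24 pairs of groups and numbers, r of their deviations ranged from -0.825 to 0.767 (median 0.0862), and 12 were above 0.1. Libraries of different numbers were not compared, so whether replicate numbers pair the libraries was not settled. With a replicate block, the count between diets in Alstonville larvae was 3, where 57.2% of all genes were called. The others stayed at 0 on 1:2, 0 on 1:16, 1 in Dahomey and 0 for the interaction. There 0.0157, 13.6, 48 and 1.07% of all genes were called, and the count over all genes on 1:2 was 2.

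Surrogate variables turned some directions. For Dahomey over Alstonville on 1:16, Pp1-Y2 was at -0.295 and -0.228 in limma with 1 and 3 of them, and kl-2 at -1.62 and -1.57. With none, limma had 1.17 for Pp1-Y2 and 0.678 for kl-2, against 3.22 and 2.22 by edgeR. With 1 and 3, roX1 was at -1.45 and -1.35 and roX2 at -1.78 and -1.81. betaTub85D, at 4.22 by edgeR, was at 0.58 and 0.342. ARY, at 4.63 by edgeR, was at 2.27 in limma with none and at 0.2 and 0.244 with 1 and 3. Between diets in Alstonville, with 3, Pp1-Y2 was at 0.437, betaTub85D at 0.829 and fru at -0.0535, and fru was at -0.121 in Dahomey. The interaction of Pp1-Y2 was at -0.228 and -0.267 and that of kl-2 at -1.40 and -1.38. Of 753 fitted values of members under all alternatives, 700 moved by less than 1 SD of the replicates, 45 moved further and 8 reversed, counting a change of sign only where the value had been above 1 SD and moved by more than that. Changes of sign of any size numbered 45, of which 20 came with surrogate variables, 11 without 1 library and 14 in other settings. Without Dahomey 1:2 replicate 4, ARY, kl-2 and betaTub85D were at -1.92, -2.13 and -2.01 for Dahomey over Alstonville on 1:2.

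Over all genes the calls on 1:2 were 12, with 0 to 87 in the alternatives (DESeq2 highest), on 1:16 1952, with 702 to 4765, in Alstonville 7640, with 4404 to 8569, in Dahomey 6249, with 2272 to 6947, and for the interaction 100, with 3 to 1397. Leaving out single libraries gave 0 to 10 on 1:2, 1021 to 2916 on 1:16 and 4 to 396 for the interaction. On 1:16, 766 were higher and 1186 lower in Dahomey, against 1002 and 919 with relative log expression and 1371 and 592 with upper-quartile scaling, which moved the all-gene median to 0.107 (log2). The interaction split was 48 and 52, against 82 and 48, and 129 and 26. Counts of 3 or fewer set the limit for ORY, Ppr-Y and Pp1-Y2.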
